A study of Mus musculus with 10 samples.

Results

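Primary B cells from mouse spleen that carried either of a pair of guide RNAs against Pou2f1 were compared directly with each other across all genes. The comparison used 4 of the 10 columns of the deposited read count table, chosen by their labels. These were the 2 columns of B cells with the genotype label sgRNA-P1 and the 2 columns with the label sgRNA-P2. The columns of a group behaved as a single library divided in a fixed proportion: 99.97% and 100% of genes with reads fitted an exact division, and all fitted it to within 1 read. They differed by less than the sampling noise, were summed, and were counted as 1 sample, so that 2 of the 5 libraries of the study were compared. The library with sgRNA-P1 held 49066261 reads and that with sgRNA-P2 held 28118839 reads. The Mock B cell library, with 33842813 reads, is given only as a background level beside the values. Elsewhere the study holds T cells with sgRNA-P1 and Mock T cells. All groups were spleen cells profiled by poly(A) RNA sequencing after CRISPR interference, with guides aimed at the P1 promoter (sgRNA-P1) or the P2 promoter (sgRNA-P2) of Pou2f1. Mouse strain, age, the repressor construct, how the cells were chosen, how long the guides were present and whether animals were pooled are not given in these sources. With 1 library for each guide there is no replicate check and no test. Brackets give exact 95% intervals, which cover counting error only.

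Pou2f1 encodes Oct-1, a POU-domain factor that binds the octamer motif and is expressed in most tissues. Its lymphoid relative Oct-2, from Pou2f2, binds the same motif, and the coactivator OCA-B, from Pou2af1, joins either factor on octamer promoters in B cells. Alternative promoters give Oct-1 isoforms with different amino-terminal ends, and a catalytically dead Cas9 fused to a repressor can lower transcription from the promoter to which its guide is directed.

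The targeted gene has several annotated starts, shown here because the guides were directed at its promoters. RefSeq lists 3 start sites of Pou2f1 on the minus strand of chromosome 1 in GRCm38.p6. The 250 bases before each are printed 5′ to 3′, with CG dinucleotides in capitals.
Pou2f1, chr1:166002635-166002884: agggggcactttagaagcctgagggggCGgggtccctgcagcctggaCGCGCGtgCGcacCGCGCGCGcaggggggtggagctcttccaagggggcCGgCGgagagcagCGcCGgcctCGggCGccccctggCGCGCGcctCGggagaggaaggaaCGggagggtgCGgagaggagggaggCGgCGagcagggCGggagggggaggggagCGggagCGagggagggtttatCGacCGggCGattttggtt
Pou2f1, chr1:165953072-165953321: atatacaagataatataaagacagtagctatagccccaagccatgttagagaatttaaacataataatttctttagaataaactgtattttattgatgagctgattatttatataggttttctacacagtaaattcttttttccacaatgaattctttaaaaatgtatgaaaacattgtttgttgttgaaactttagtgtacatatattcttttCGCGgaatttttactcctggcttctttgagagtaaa
Pou2f1, chr1:165934949-165935198: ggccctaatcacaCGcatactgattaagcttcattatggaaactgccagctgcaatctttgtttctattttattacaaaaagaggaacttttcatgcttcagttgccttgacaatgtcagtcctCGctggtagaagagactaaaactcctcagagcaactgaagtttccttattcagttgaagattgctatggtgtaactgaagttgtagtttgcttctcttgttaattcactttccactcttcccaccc
The outermost stretch was 74.4% G and C and held 29 CG dinucleotides. The other two were 26.8% and 40% G and C and held 2 each. The labels do not say which start is P1 and which is P2, and the guide sequences are not analysed here.

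Pou2f1 stood at nearly the same level with either guide. With sgRNA-P1 its level, in read counts scaled to library size (CPM), was 91.1 [87.3 to 94.9]. With sgRNA-P2 it was 86.5 CPM [81.6 to 91.4], beside 156.7 CPM [150.8 to 162.7] in Mock. The log2 ratio of sgRNA-P1 over sgRNA-P2 was 0.07 [-0.03 to 0.18], so no difference was detectable at this depth, and the interval leaves room for a difference of either sign up to its bounds. Both guide libraries lay below Mock, and their intervals overlapped each other. Reads were summed over all exons of the gene (chromosome 1, 165692723 to 165830247, minus strand, mm39), so transcripts of the single promoters cannot be told apart. Exons of Cd247, on the opposite strand, overlap 3007 bases of it, or 18.1% of its exon length. Cd247 was at no more than 0.664 CPM in the compared libraries.

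The partners and relatives of Oct-1 were also close. Pou2f2, the gene of Oct-2, was at 361 CPM with sgRNA-P1, 347 CPM with sgRNA-P2 and 338 CPM in Mock (log2 ratio between guides 0.06 [0.00 to 0.11]). For Pou2af1, the gene of OCA-B, these levels were 635.9, 621.2 and 621.2 CPM (0.03 [-0.00 to 0.07]). Pou2af2, a relative of that coactivator, had 9.65, 10.4 and 9.46 CPM (-0.11 [-0.41 to 0.20]). Pou2f3, a POU factor of tuft cells, had no read with either guide, and the upper bounds of its intervals were 0.153 CPM with sgRNA-P1 and 0.262 CPM with sgRNA-P2. None of these genes was 1.1-fold or more apart.

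Among genes within 500 kb of Pou2f1, 6 others reached 5 CPM. Of these, Rcsd1, which encodes an actin-capping regulator, was at 433 CPM with sgRNA-P1 and 416 CPM with sgRNA-P2 (0.06 [0.01 to 0.10]). Intervals reached 0 for Dcaf6 (0.11), Mpc2 (-0.01), Creg1 (-0.12), Tada1 (-0.04) and Pogk (-0.12). Target and neighbours thus lay within 1.1-fold between the guides.

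Across the table the guide libraries were alike. Of 56893 genes, 10059 reached 5 CPM in the higher of both libraries. Their median log2 ratio was -0.00, and 72.7% lay within 1.1-fold. Levels in the libraries followed each other closely across these genes, with Spearman's rho of 0.997, a description since genes are not independent replicates. A ratio of 1.5-fold or more was used as the size rule. It was met by 42 genes (0.418%), of which 30 (0.298%) were higher with sgRNA-P1 and 12 (0.119%) were lower. Only 7 of the 7170 genes at 20 CPM or more met it, and 2 of the 2461 genes at 100 CPM or more, mt-Nd2 and mt-Nd6. A smaller step of 1.1-fold was passed by 14.2% of genes upward and 13.1% downward, and the counting interval lay above 0 for 13.7% and below 0 for 9.53%. These shares are the background for each gene group below. In bulk RNA a lower share of a cell type and less RNA per cell cannot be told apart.

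**Figure D1:**
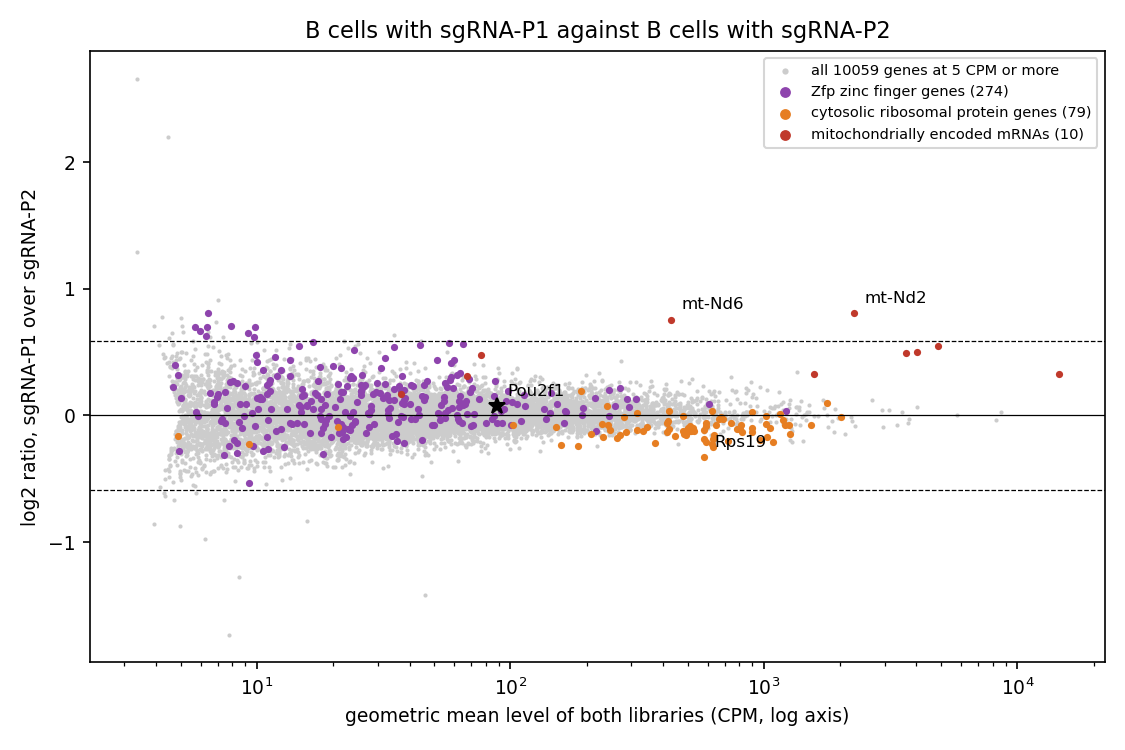
Each point is a gene at 5 CPM or more, with its geometric mean level in both libraries (CPM, log axis) against its log2 ratio of sgRNA-P1 over sgRNA-P2, and dashed lines mark 1.5-fold. The 10 mitochondrially encoded mRNAs, at levels from 34.9 to 16314 CPM, lie above 0, 71 of 79 ribosomal protein genes lie below 0, and Pou2f1 (star) lies at 0.07.

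The genes past 1.5-fold were mostly at low levels. Without predicted genes and pseudogenes, 28 remained, 22 higher with sgRNA-P1 and 6 lower. The 22 comprised 9 Zfp zinc finger genes, 3 mitochondrially encoded genes and 10 others. Ccdc18, which encodes a coiled-coil protein of centriolar satellites, was at 9.67 CPM with sgRNA-P1, 5.12 CPM with sgRNA-P2 and 5.67 CPM in Mock (0.91 [0.53 to 1.32]). Gpm6b, a membrane glycoprotein gene of the proteolipid family, had 6.58, 3.84 and 3.4 CPM (0.77). Neb, the gene of the muscle filament protein nebulin, had 5.54, 3.2 and 4.91 CPM (0.78 [0.29 to 1.31]). These low values rest on few reads, and their intervals span a wide range of folds. Cntln, the gene of the centriole protein centlein, had 6.43, 4.05 and 4.52 CPM (0.66 [0.22 to 1.13]). Chic1 was at 9.15, 5.94 and 7.39 CPM (0.62 [0.26 to 1.01]), and Pcbp3, which encodes a poly(C)-binding protein, at 6.87, 4.55 and 5.14 CPM (0.59 [0.16 to 1.03]). In each of these 6 genes the sgRNA-P1 library was the highest of the 3. They were chosen for a higher level with sgRNA-P1, so this order is partly given by the choice. Of the guide libraries, only sgRNA-P1 brought Gpm6b, Neb, Cntln and Pcbp3 past the filter of 5 CPM. No 50-base word of the Ccdc18, Gpm6b, Cntln or Pcbp3 transcripts occurred in a transcript of another gene. After a trend on GC content and length was subtracted, Chic1 (0.44) was within 1.5-fold, and Ccdc18, Gpm6b, Neb, Cntln and Pcbp3 were past it.

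Some of the higher genes have near-identical copies and are uncertain. Srp54b, which encodes the GTPase subunit of the signal recognition particle, was at 5.29 CPM with sgRNA-P1, 2.13 CPM with sgRNA-P2 and 1.42 CPM in Mock (1.29 [0.72 to 1.93]). Of its 50-base words, 99.8% occur in other transcripts, mainly those of Srp54a and Srp54c. Depdc1a, at 5.58, 3.63 and 2.98 CPM (0.61 [0.14 to 1.11]), shares 62.6% of its words, with Gm5596. The heavy chain segment Ighv1-85, at 5.02, 3.06 and 3.22 CPM (0.70), shares 35.4%. Srp54b, Depdc1a and Ighv1-85 passed the filter only through sgRNA-P1, the library where they were higher. Igkj3, a joining segment of the kappa light chain with 38 exonic bases, was the only nuclear annotated gene of the 28 above 20 CPM. Its levels were 54.3, 36.1 and 36.6 CPM (0.59 [0.44 to 0.74]).

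The 6 annotated genes lower with sgRNA-P1 did not exceed 9.35 CPM in either library. All but Ighj3 passed the filter only through sgRNA-P2, where they were higher, so their ratios and intervals are those of selected genes. Myef2l was at 3.67 CPM with sgRNA-P1, 6.72 CPM with sgRNA-P2 and 5.41 CPM in Mock (-0.87 [-1.31 to -0.44]). Adcy6, an adenylyl cyclase gene, had 3.73, 5.94 and 4.38 CPM (-0.67 [-1.11 to -0.21]). Ighj3, a joining segment of the heavy chain, had 5.89, 9.35 and 8.13 CPM (-0.67 [-1.01 to -0.31]). In each of them Mock lay between the guide libraries, a position that choice by the ratio between the guides favours. Amz1, a metallopeptidase gene, had 3.49 and 5.41 CPM (-0.63 [-1.10 to -0.17]), and Cep19, a gene of a centrosomal protein, 4.67 and 7.15 CPM (-0.62 [-1.02 to -0.21]). Nr2f6, an orphan nuclear receptor gene, had 3.46 and 5.3 CPM (-0.61 [-1.08 to -0.14]) and is uncertain, since 54.4% of its exon length overlaps Ocel1 on the opposite strand. Just inside the rule stood mt-Tp at 1.501-fold and Pcbp3 at 1.502-fold, and just outside it Gm20008 at 1.498-fold and Zfp268 at 1.495-fold.

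**Figure D2:**
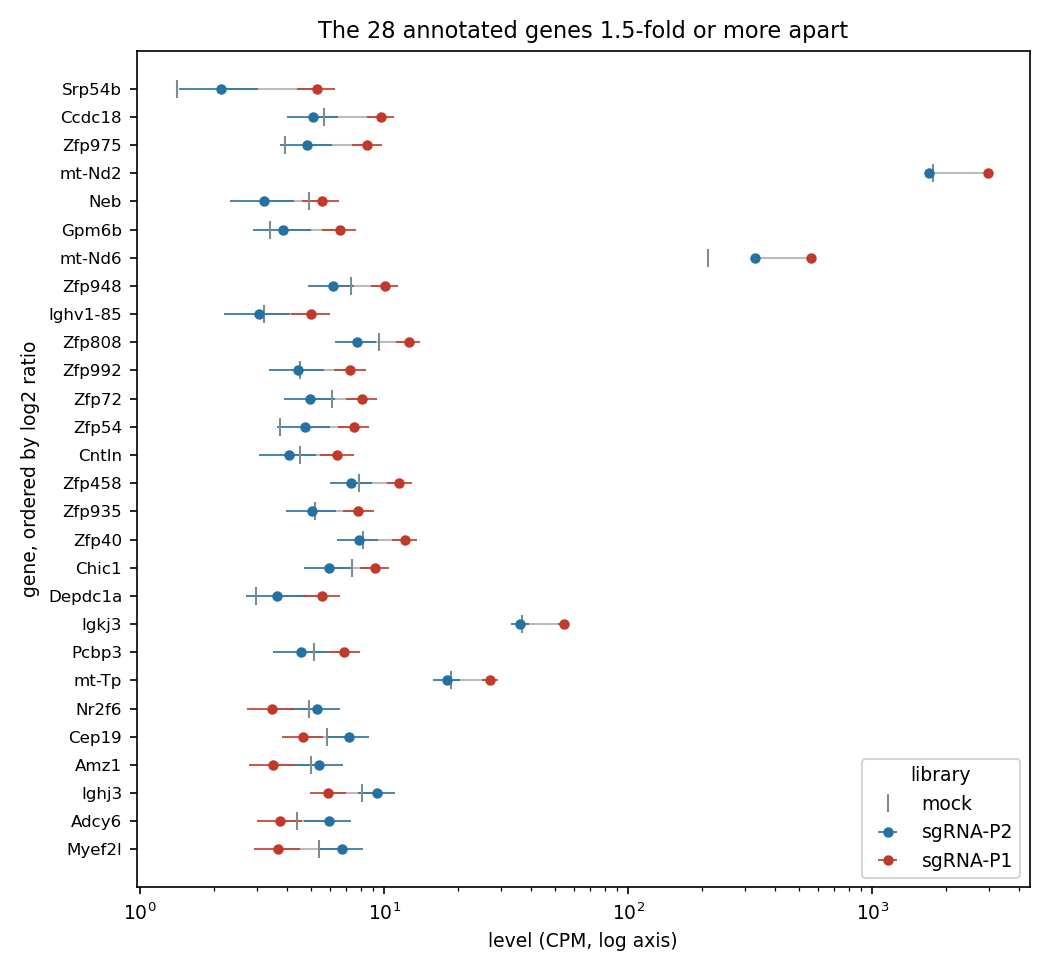
Levels (CPM, log axis) of the 28 annotated genes 1.5-fold or more apart, with exact 95% counting intervals for both guide libraries and a tick for Mock. Apart from the mitochondrial genes and Igkj3, levels lie at 12.6 CPM or less in both guide libraries.

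The other 14 genes past the rule were predicted genes or pseudogenes. The farthest apart were Gm6206, at 9.63 CPM with sgRNA-P1, 2.06 CPM with sgRNA-P2 and 13.1 CPM in Mock (2.20 [1.66 to 2.83]), and an unnamed gene at 8.53, 1.32 and 1.42 CPM (2.66). On the lower side were Hspd1-ps3 at 4.25, 14.2 and 11.8 CPM (-1.73 [-2.10 to -1.39]), Gm4202 at 28.3, 75.4 and 51.8 CPM (-1.41 [-1.56 to -1.28]) and Gm4149 at 5.46, 13.2 and 6.36 CPM (-1.27 [-1.61 to -0.94]). Each of the named 4 shares many words with an expressed gene: Gm6206 88.4% with Cop1 and others, Hspd1-ps3 60.7% with Hspd1, Gm4202 93.4% with Ywhaz and Gm4149 99.1% with Rpl37a. Their counts are therefore uncertain. Gm6206 and the unnamed gene passed the filter only through sgRNA-P1, and Hspd1-ps3 only through sgRNA-P2.

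Mitochondrially encoded transcripts were higher with sgRNA-P1. The mitochondrial genome encodes core subunits of respiratory complexes I, III and IV and of the ATP synthase, together with the ribosomal and transfer RNAs for their translation. Of its 13 mRNAs, 10 reached 5 CPM, and all 10 were higher with sgRNA-P1, at a median log2 ratio of 0.48 beside -0.00 for all genes. All 10 were 1.1-fold or more higher, beside 14.2% of genes in the table, and 2 passed 1.5-fold. Genes of chromosome M took 3.79% of reads with sgRNA-P1 (exact 95% interval 3.79 to 3.8), 2.85% with sgRNA-P2 (2.84 to 2.86) and 2.54% in Mock (2.53 to 2.55).

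The mRNAs of complex I subunits differed among themselves. For mt-Nd2 the level was 2994 CPM with sgRNA-P1, 1710 CPM with sgRNA-P2 and 1776 CPM in Mock (0.81 [0.79 to 0.83]). Here sgRNA-P2 and Mock were side by side and sgRNA-P1 stood apart. The mt-Nd6 mRNA had 560 CPM with sgRNA-P1, 332 CPM with sgRNA-P2 and 213 CPM in Mock (0.76 [0.71 to 0.81]), a stepwise order with sgRNA-P2 in the middle. That middle position was shared by mt-Nd1 at 4794, 3382 and 3106 CPM (0.50 [0.49 to 0.52]) and mt-Nd5 at 4309, 3060 and 2647 CPM (0.49 [0.48 to 0.51]). Of the complex I mRNAs at the filter, mt-Nd4 had the smallest ratio, with 1768, 1410 and 1271 CPM (0.33 [0.30 to 0.35]).

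The cytochrome b mRNA of complex III, mt-Cytb, was at 5893 CPM with sgRNA-P1, 4023 CPM with sgRNA-P2 and 3545 CPM in Mock (0.55 [0.54 to 0.56]). Among the cytochrome oxidase subunits of complex IV, mt-Co1 had the highest counted level of the mitochondrial mRNAs, at 16314, 12976 and 11359 CPM (0.33 [0.32 to 0.34]). For mt-Co2 the values were 90.2, 64.9 and 51.9 CPM (0.48 [0.36 to 0.59]), and for mt-Co3 39.2, 34.9 and 28.8 CPM (0.17 [0.01 to 0.33]). The ATP synthase mRNA mt-Atp6 had 75.2, 60.6 and 45.1 CPM (0.31 [0.19 to 0.43]). All 5 thus had sgRNA-P1 highest and Mock lowest. Below the filter, mt-Nd3 was at 3.38 and 1.99 CPM (0.75 [0.12 to 1.43]), and the intervals of mt-Nd4l (0.43) and mt-Atp8 (1.01) reached 0.

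Both mitochondrial ribosomal RNAs were also higher with sgRNA-P1. The small subunit RNA mt-Rnr1 was at 229 CPM with sgRNA-P1, 198 CPM with sgRNA-P2 and 183 CPM in Mock (0.21 [0.15 to 0.28]). For the large subunit RNA mt-Rnr2 these were 1521, 1200 and 1150 CPM (0.34 [0.32 to 0.37]). After the GC and length trend was subtracted, mt-Rnr1 was at 0.03 and so within 1.1-fold, and mt-Rnr2 at 0.16. The transfer RNA gene mt-Tp had 27.1, 18 and 18.7 CPM (0.59 [0.38 to 0.81]). The genes of the light strand annotation, mt-Nd6 and mt-Tp, took 0.0577% of reads with sgRNA-P1, 0.035% with sgRNA-P2 and 0.0232% in Mock. The strand setting of the counting is not given, so reads of mt-Nd6 and reads antisense to it cannot be told apart.

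Copies of mitochondrial sequence in the nuclear genome make some of these genes uncertain. The 5 mRNAs with under 10% of words shared (mt-Nd1, mt-Nd2, mt-Nd5, mt-Nd6 and mt-Cytb) had a median of 0.55. The 5 that share more, with annotated copies such as Gm28661, Gm28437 and Gm29216, had a median of 0.33. Among them mt-Co2, mt-Co3 and mt-Atp6 share 100%, 99.9% and 99.5% of their words. Their levels are therefore as uncertain as their ratios, and counted levels do not rank the abundance of these mRNAs. Subtraction of a trend on GC content and length left 10 of 10 higher, at a median of 0.34, with 8 past 1.1-fold. After it mt-Nd2 was still past 1.5-fold (0.63), and mt-Nd6 and mt-Tp were not.

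**Figure D3:**
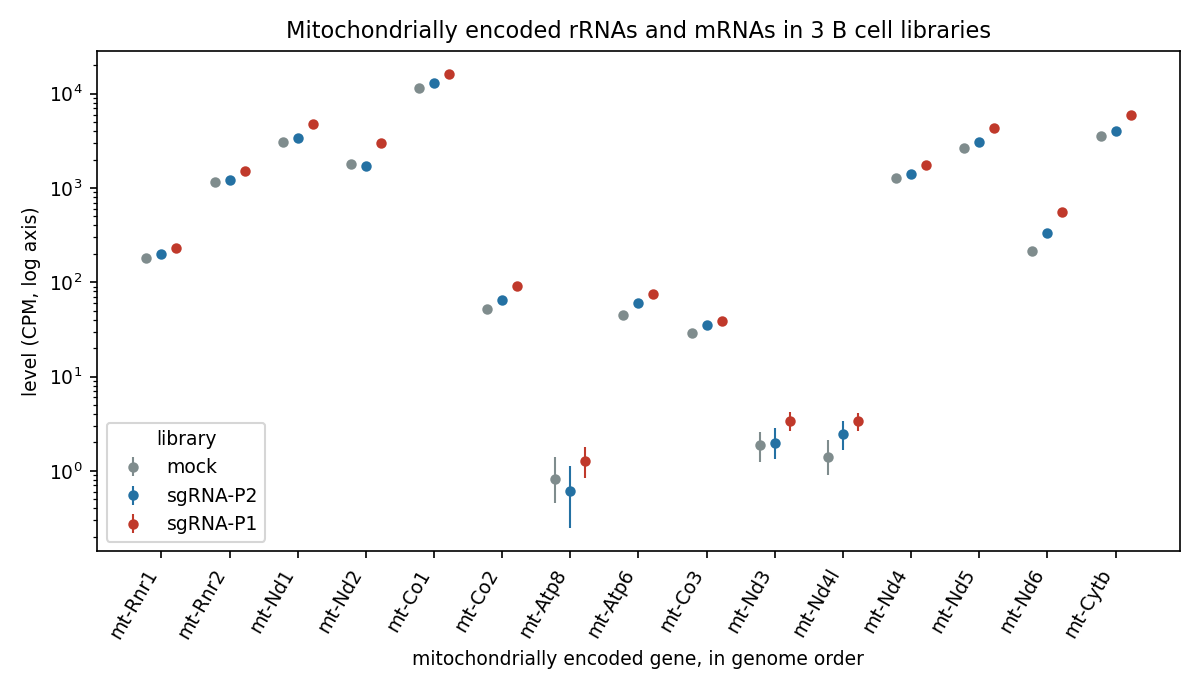
Levels (CPM, log axis) of 15 mitochondrially encoded RNAs in the Mock, sgRNA-P2 and sgRNA-P1 libraries, with exact 95% counting intervals that are smaller than the points for abundant genes. The sgRNA-P1 point is the highest of the 3 for each gene, and sgRNA-P2 lies between the others for most, with mt-Nd2 at 1710 CPM against 1776 CPM in Mock.

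Nuclear genes for the same respiratory complexes showed the opposite direction at a smaller size. Of 80 subunit genes, 77 reached 5 CPM, with 65 lower and 12 higher with sgRNA-P1, beside 50.6% and 49.4% of all genes. The median was -0.11. Past 1.1-fold were 27 lower and 1 higher, beside 13.1% and 14.2% of all genes, and none passed 1.5-fold. Their summed level was 4032 CPM with sgRNA-P1, 4294 CPM with sgRNA-P2 and 4494 CPM in Mock.

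By complex, 30 of 36 genes of complex I (NADH dehydrogenase) were lower, at a median of -0.12. Ndufa8 was at 16 CPM with sgRNA-P1, 20.7 CPM with sgRNA-P2 and 22.2 CPM in Mock (-0.37 [-0.59 to -0.15]). Ndufs7, an iron-sulfur subunit gene, had 32.4, 38.5 and 40.9 CPM (-0.25 [-0.41 to -0.09]). Against this direction, Ndufa12 had 16.1, 11.8 and 12.9 CPM (0.45 [0.19 to 0.72]), and 17.2% of its words occur in Gm15920. The 4 genes of complex II (succinate dehydrogenase) were all lower, at a median of -0.11, none past 1.1-fold.

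In complex III, 8 of 9 genes were lower (median -0.11), among them Cyc1, the gene of cytochrome c1, at 63, 73.8 and 76.5 CPM (-0.23 [-0.34 to -0.11]). The Rieske protein gene Uqcrfs1 had 52.9, 60.9 and 62.7 CPM (-0.20 [-0.33 to -0.08]). Complex IV had 8 of 11 lower at a median of -0.04, led by Cox7a2 at 20.3, 26.3 and 26.9 CPM (-0.37 [-0.57 to -0.17]). In the ATP synthase 15 of 17 were lower (median -0.06). Its lowest gene, Atp5f1e, which encodes the epsilon subunit of the catalytic head, was at 38 CPM with sgRNA-P1, 52.9 CPM with sgRNA-P2 and 54.4 CPM in Mock (-0.48 [-0.62 to -0.34]). None of the 50-base words of Atp5f1e, Cox7a2, Ndufa8 or Cyc1 was shared. After the GC and length trend was subtracted, the median of 75 respiratory subunit genes was -0.07, with 56 lower and 19 higher.

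Genes that express the mitochondrial genome did not share a direction. Of 30 at the filter, which include the mitochondrial RNA polymerase gene Polrmt and the packaging factor gene Tfam, 14 were higher and 16 lower (median -0.01). Polrmt was at 49.8 CPM with sgRNA-P1 and 52 CPM with sgRNA-P2 (-0.06 [-0.19 to 0.07]). Tfam was at 93.4 and 90.8 CPM (0.04 [-0.06 to 0.14]). Tbrg4, a FAST kinase family gene of mitochondrial RNA processing, had 68.6 and 78.8 CPM (-0.20 [-0.31 to -0.09]). Among mitochondrial ribosomal protein genes 48 of 76 were lower (median -0.05), with 14 lower and 6 higher past 1.1-fold. Their extremes were Mrpl53 (-0.33 [-0.60 to -0.04]) and Mrpl18 (0.32 [0.10 to 0.55]).

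Cytosolic ribosomal protein genes were lower with sgRNA-P1 as a group. These genes encode the proteins of the cytoplasmic ribosome, and many have processed pseudogenes. Of 79 at the filter, of 80 listed, 71 were lower and 8 higher, at a median of -0.11. Past 1.1-fold were 24 lower and 1 higher, and the counting interval lay below 0 for 59 genes, beside 9.53% of all genes. Most of these genes are abundant, so their intervals are narrow and exclude 0 at small ratios, as for Rpl5 (-0.04 [-0.06 to -0.01]). The share over all genes is not matched for level. Together they took 4.58% of reads with sgRNA-P1 (4.58 to 4.59), 4.97% with sgRNA-P2 (4.96 to 4.98) and 5.39% in Mock (5.38 to 5.4).

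Rps19, a small subunit gene, was the lowest of them, at 516.5 CPM with sgRNA-P1, 648.9 CPM with sgRNA-P2 and 738.6 CPM in Mock (-0.33 [-0.37 to -0.29]). Only 2.7% of its words were shared. Of the large subunit, Rpl9 had 575 CPM with sgRNA-P1 and 684 CPM with sgRNA-P2 (-0.25 [-0.29 to -0.21]), and Rpl30 147 and 172 CPM (-0.23 [-0.31 to -0.16]). For Rps21 the values were 169 and 200.4 CPM (-0.24 [-0.31 to -0.18]). The exception past 1.1-fold was Rpl35, at 204 and 178 CPM (0.19 [0.12 to 0.26]), with 95.1% of its words shared. The 13 genes with under 10% of words shared had a median of -0.13, with 6 of them past 1.1-fold and lower. With the trend on GC content and length subtracted, the list median was -0.06, with 67 lower and 12 higher.

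Other parts of the translation and protein turnover machinery were near 0. Translation factor genes had a median of -0.00 (19 of 39 higher). The proteasome list had -0.02, with 8 of 38 genes past 1.1-fold and lower, led by Psmd13 at 53.9 and 65.6 CPM (-0.28 [-0.41 to -0.16]). Genes of SR proteins, which are splicing factors rich in serine and arginine, and of the kinases that modify them had a median of 0.09, with 12 of 16 higher and 4 past 1.1-fold. They included Srsf11 at 483 CPM with sgRNA-P1 and 425 CPM with sgRNA-P2 (0.19 [0.14 to 0.23]) and Srsf1 at 474 and 422 CPM (0.17 [0.12 to 0.21]). After the trend was subtracted this median was 0.01.

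Zfp zinc finger genes were higher with sgRNA-P1 as a group. Many of them encode KRAB zinc finger proteins, repressors that bind transposable elements, and lie in clusters of related copies. Of 415 genes in the table, 274 passed the filter, with 190 higher and 84 lower with sgRNA-P1 and a median of 0.09. Past 1.1-fold were 107 higher and 23 lower, beside 14.2% and 13.1% of all genes. The interval lay above 0 for 90 and below 0 for 6. Past 1.5-fold were 9 higher and none lower. After the GC and length trend was subtracted, only Zfp975 (0.66) and Zfp948 (0.62) of these 9 stayed past 1.5-fold.

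The highest ratio was that of Zfp975, at 8.53 CPM with sgRNA-P1, 4.84 CPM with sgRNA-P2 and 3.9 CPM in Mock (0.81 [0.41 to 1.23]), with 41.8% of words shared. Zfp948 had 10.1, 6.15 and 7.33 CPM (0.71 [0.36 to 1.09]), with 0.1% shared. Zfp808 had 12.6, 7.72 and 9.52 CPM (0.70 [0.39 to 1.04]), with 46.4% shared. Of the other 6, Zfp72 (0.70), Zfp458 (0.65) and Zfp40 (0.62) had no or almost no shared words. Zfp992 (0.70) and Zfp54 (0.66) shared 43.7% and 5.5%, and Zfp935 (0.63) shared 100%. Zfp975, Zfp72, Zfp992 and Zfp54 passed the filter only through sgRNA-P1, where they were higher. At higher levels, Zfp984 was at 79.3, 53.6 and 58.7 CPM (0.56 [0.44 to 0.69]) and Zfp943 at 69.7, 46.9 and 53.9 CPM (0.57 [0.44 to 0.70]). In both the sgRNA-P1 library stood above Mock and the sgRNA-P2 library below it. Among those lower, Zfp128 was farthest, at 7.74, 11.2 and 8.31 CPM (-0.53 [-0.85 to -0.22]).

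Zfp genes differed by chromosome. On chromosome 13, 29 genes had a median of 0.25, with 20 higher and 1 lower past 1.1-fold and 4 past 1.5-fold. The 38 on chromosome 17 had 0.22, with 24 higher and 2 lower past 1.1-fold. The 66 on chromosome 7 had only 0.04, with 18 higher and 10 lower. Their GC content differed as well, with medians of 39.07% on chromosome 13, 39.45% on chromosome 17 and 47.97% on chromosome 7. Across 269 Zfp genes the log2 ratio was lower at higher GC content (Spearman's rho -0.68), while rho with exon length was -0.05. The 206 genes with under 10% shared had a median of 0.07 (73 higher and 21 lower past 1.1-fold) and the other 63 had 0.10.

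A relation to GC content ran through all genes. Over 9851 genes with a known transcript, Spearman's rho of the log2 ratio was -0.45 with GC content and 0.2 with exon length. Of 10 bins of genes by GC content, the lowest, at a median of 39.22%, had a median log2 ratio of 0.13 and held 18 genes past 1.5-fold and higher and 1 lower. The highest bin, at 58.87%, had -0.06, with none higher and 3 lower. Against Mock the same bins had 0.15 and -0.09 with sgRNA-P1, and 0.02 and -0.02 with sgRNA-P2. The comparisons with Mock share that library. By length, medians went from -0.05 in the bin of shortest genes to 0.04 in that of the longest. GC content also differed between the groups above, with a median of 43.58% in Zfp genes, 42.22% in SR protein genes, 51% in ribosomal protein genes and 37.37% in mitochondrial mRNAs, beside 49.01% in all genes. With the trend subtracted, 24 genes passed 1.5-fold, 14 higher and 10 lower, against 38 before it in the same genes (27 and 11), and 23 of the 24 had passed before. The Zfp median was then 0.05, with 170 of 269 higher.

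**Figure D4:**
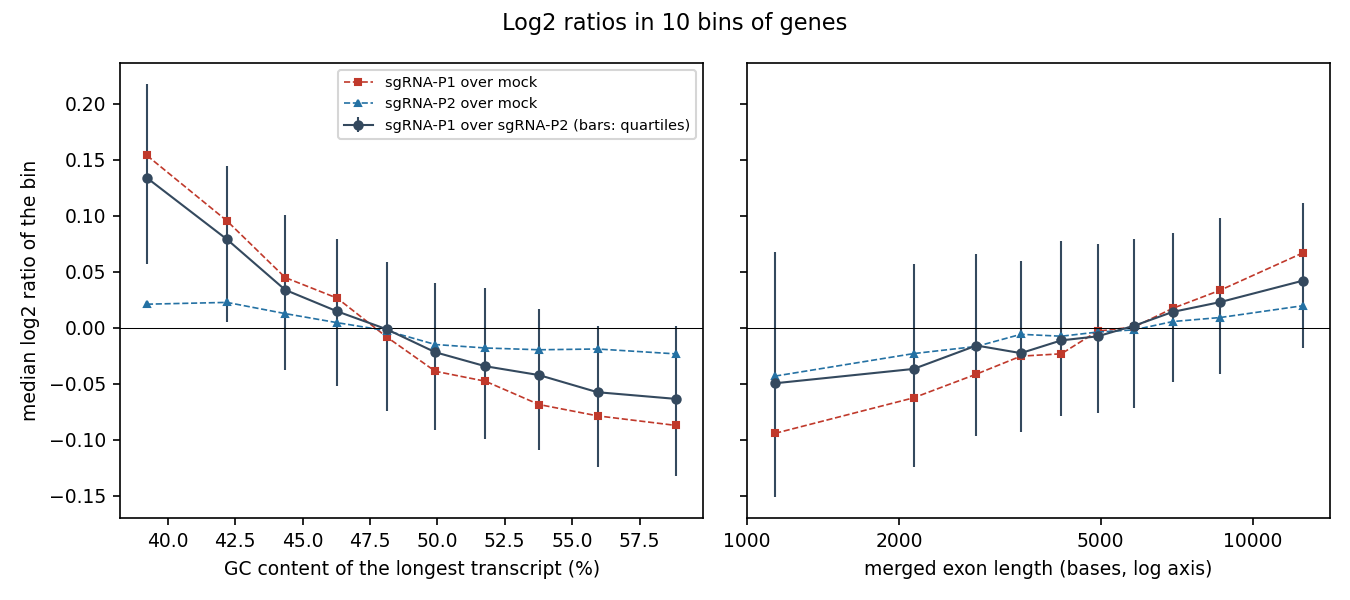
Median log2 ratios in 10 bins of 985 or 986 genes, by GC content of the longest transcript (left, %) and by exon length (right, bases, log axis), with quartile bars for sgRNA-P1 over sgRNA-P2 and dashed lines for each guide over Mock. The median between the guides goes from 0.13 in the lowest GC bin to -0.06 in the highest.

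B cell identity genes were alike with both guides, and the cells carried their markers. Of 22 genes listed, 21 were in the table and all of these passed the filter, with 11 higher and 10 lower, a median of 0.01 and a summed level of 27240 CPM with sgRNA-P1, 27320 CPM with sgRNA-P2 and 27180 CPM in Mock. Cd79a, a chain of the antigen receptor, was at 1475 and 1461 CPM (0.01 [-0.01 to 0.04]). Ms4a1, the gene of CD20, was at 1780 CPM with sgRNA-P1, 1635 CPM with sgRNA-P2 and 1575 CPM in Mock (0.12 [0.10 to 0.15]), with sgRNA-P2 nearer to Mock. Its ratio between the guides was 0.01 after the GC and length trend. Among lineage transcription factors, 19 of 28 were higher (median 0.04), with 5 higher and 1 lower past 1.1-fold, beside 14.2% and 13.1% of all genes. Mef2c, a factor of B cell proliferation, was at 833, 727 and 695 CPM (0.20 [0.16 to 0.23]). Ebf1, which specifies the lineage, was at 367, 329 and 322 CPM (0.15 [0.10 to 0.21]). Id3, an inhibitor of E proteins, had 38.4, 44 and 45.3 CPM (-0.20 [-0.35 to -0.05]). After the GC and length trend was subtracted, 1 of the 28 factors was past 1.1-fold, and Mef2c (0.08), Ebf1 (0.09) and Id3 (-0.13) were within it.

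Receptor signalling genes had a median of -0.01, with 2 of 45 past 1.1-fold. For genes that separate marginal zone from follicular B cells the median was -0.00. In that list Cd55, a complement regulator gene, was at 974 CPM with sgRNA-P1, 812 CPM with sgRNA-P2 and 834 CPM in Mock (0.26 [0.23 to 0.29]), with 12.5% of its words shared, mainly with Cd55b. Germinal centre and activated B cell genes had 0.05 (11 of 16 higher), with Rgs13, a regulator of G protein signalling, at 5.81 and 4.23 CPM (0.45 [0.02 to 0.93]). Rgs13 passed the filter only through sgRNA-P1, where it was higher, and was at 0.26 after the GC and length trend. Plasma cell genes had -0.03.

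Immunoglobulin genes kept their order. Ighm, the IgM heavy chain gene, was at 5773 CPM with sgRNA-P1, 5768 CPM with sgRNA-P2 and 5605 CPM in Mock (0.00 [-0.01 to 0.01]). Ighd had 3167 and 3068 CPM (0.05 [0.03 to 0.06]), and Igkc, the kappa constant gene, 1938 and 1870 CPM (0.05 [0.03 to 0.07]). These 3 were within 1.1-fold. Igha, the IgA gene, had 53.6 and 61.7 CPM (-0.20 [-0.33 to -0.08]), and the lambda genes Iglc2 (-0.13 [-0.19 to -0.07]) and Iglc3 (-0.16 [-0.26 to -0.06]) were also lower with sgRNA-P1. Of 63 heavy chain variable segments 33 were higher and 30 lower (median 0.01), and of 64 kappa segments 31 were higher and 33 lower (-0.00). Levels of these segments followed each other between the libraries, with Spearman's rho of 0.969 and 0.988. Reads of related segments cannot be assigned with certainty.

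Genes listed for octamer sites or regulation by Oct factors stood near 0. The list held 17, of which 16 passed the filter, with 10 higher and 6 lower and a median of 0.02. Past 1.1-fold, 1 gene was higher and 2 were lower. The higher gene was Crisp3, at 27.3 CPM with sgRNA-P1 and 24 CPM with sgRNA-P2 (0.19 [-0.01 to 0.38]), whose ratio after the GC and length trend was 0.02. The lower genes were Kcnn4, a potassium channel gene, at 11 and 13.7 CPM (-0.32 [-0.59 to -0.04]), and S1pr4, a sphingosine phosphate receptor gene, at 80.7 and 89.2 CPM (-0.14 [-0.25 to -0.04]). After the trend S1pr4 was at -0.07, within 1.1-fold.

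The octamer ATGCAAAT was also searched, on both strands, in RefSeq windows from 250 bases before to 50 after each start (GRCm38.p6), and was the only motif searched. It was found in 570 of 32851 windows (1.74%), and in a window of 125 of the 7630 genes at the filter that matched by symbol (1.64%). Those 125 genes had a median log2 ratio of -0.00, as had the rest, with 62 higher and 63 lower and 16 and 14 past 1.1-fold. None of the 16 matched genes past 1.5-fold and higher, none of the 3 lower, and none of the 3 Pou2f1 windows held the 8 letters. Nor did a window of any of the 10 matched genes of the octamer list. At the share of 1.64% sets this small would mostly hold none, so their lack of the motif decides nothing. As an example of a matched window, the 250 bases before the start of Blnk, the gene of a B cell receptor adaptor, are shown with the octamer in capitals in its reverse complement, 130 bases before the start.
Blnk, chr19:40994222-40994471: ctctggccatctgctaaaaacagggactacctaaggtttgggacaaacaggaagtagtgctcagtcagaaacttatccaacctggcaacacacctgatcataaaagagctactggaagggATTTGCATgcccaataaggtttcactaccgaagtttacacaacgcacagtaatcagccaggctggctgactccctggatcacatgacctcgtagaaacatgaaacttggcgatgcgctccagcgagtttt
Blnk was at 315 CPM with sgRNA-P1, 312 CPM with sgRNA-P2 and 314 CPM in Mock (0.01 [-0.04 to 0.06]), the same level in all 3.

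Genes of class I antigen presentation were mostly lower with sgRNA-P1, and those of class II changed sign with the GC and length trend. In the class I list 16 of 22 were lower (median -0.06), with 6 lower and 1 higher past 1.1-fold. Psmb8, an immunoproteasome subunit gene, was at 91.2 CPM with sgRNA-P1, 109.6 CPM with sgRNA-P2 and 112.5 CPM in Mock (-0.27 [-0.36 to -0.17]). Tap2, the gene of a peptide transporter chain, had 89.7, 105 and 106 CPM (-0.22 [-0.32 to -0.13]). The class II list had -0.02 (10 of 16 lower), with H2-DMb1, of the peptide exchange complex, at 203, 239 and 231 CPM (-0.24 [-0.30 to -0.18]) and 27.2% of words shared. After the trend was subtracted these medians were -0.03 and 0.03. Target genes of NF-kB had a median of -0.08 (15 of 21 lower, 2 past 1.1-fold), and -0.02 after the trend. Interferon response genes had 0.01, with 6 of 42 higher and 2 lower past 1.1-fold, beside 14.2% and 13.1% of all genes. Their largest ratio was that of Ifi203 at 823, 666 and 630 CPM (0.30 [0.27 to 0.34]), a gene of low GC content (38.36%). Its ratio after the trend was 0.14.

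**Figure D5:**
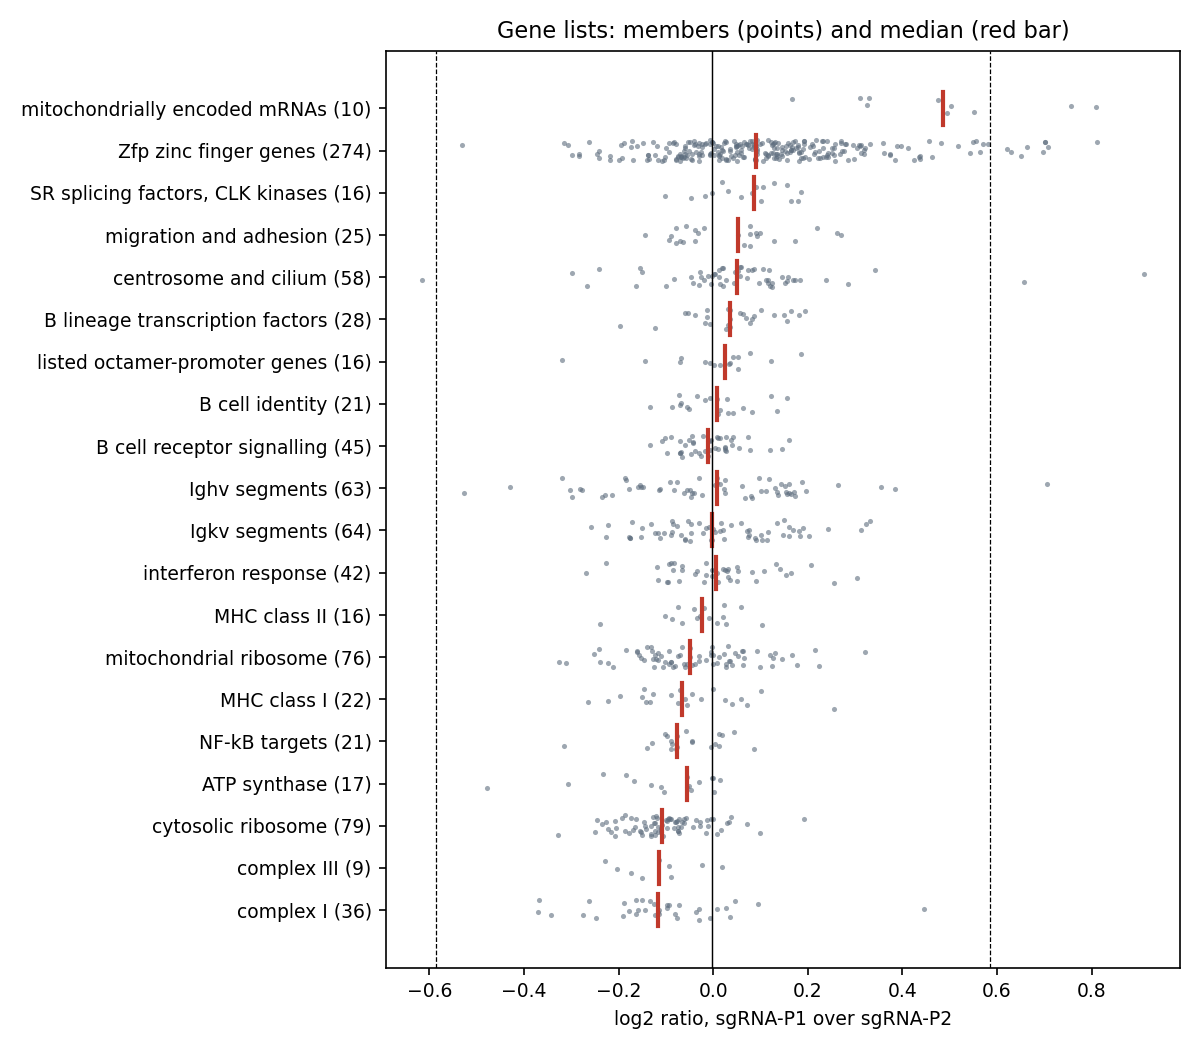
Log2 ratios of sgRNA-P1 over sgRNA-P2 for the members (points) of 20 gene lists, with the number at 5 CPM or more in brackets, the list median as a red bar, the median of all genes as a solid line and 1.5-fold as dashed lines. Medians run from 0.48 for mitochondrially encoded mRNAs to -0.12 for complex I.

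Among annotated genes (predicted genes and pseudogenes left out) that reached 20 CPM, the lowest ratios after Atp5f1e were those of Dynll2, a dynein light chain gene, at 19.9 CPM with sgRNA-P1 and 27.4 CPM with sgRNA-P2 (-0.46 [-0.66 to -0.27]), and Prdx2, a peroxiredoxin gene, at 27.2 and 36.3 CPM (-0.42 [-0.59 to -0.25]). Npm3 (-0.41), Pmvk (-0.41), Adck5 (-0.41), Tspo (-0.40) and Rcc1l (-0.40) followed. The higher library decided entry, and Dynll2 reached 20 CPM only with sgRNA-P2, where it was higher. Tspo encodes an outer mitochondrial membrane protein, and its levels were 28.7, 37.9 and, in Mock, 43 CPM. On the higher side, beside mitochondrial, Zfp and Igkj3 transcripts, Eif3j1, an initiation factor gene, was at 30.5 and 20.6 CPM (0.56 [0.36 to 0.76]), with 54.8% of words shared, mainly with its copy Eif3j2. Among annotated genes at 100 CPM or more, the nuclear genes with the highest ratios were Ppig, a cyclophilin gene, at 122 and 93.5 CPM (0.38 [0.28 to 0.47]), Cops2, of the COP9 signalosome, at 102 and 78.5 CPM (0.38 [0.27 to 0.48]), and Cmpk1, a nucleotide kinase gene, at 120 and 93.5 CPM (0.37 [0.27 to 0.46]). Ppig, Cops2 and Cmpk1 reached 100 CPM only with sgRNA-P1, where they were higher, so their ratios are those of selected genes. Their GC contents were 37.79%, 37.29% and 39.43%, and their ratios after the GC and length trend were 0.20, 0.20 and 0.24. The lowest at this level, after Rps19 and Psmb8, was Nelfb, of the elongation factor NELF, at 99.3 and 118.6 CPM (-0.26 [-0.35 to -0.17]). Psmb8 and Nelfb reached 100 CPM only with sgRNA-P2, where they were higher, and Nelfb was at -0.20 after the trend. The phosphatase gene Dusp2 was at 425 and 497 CPM (-0.23 [-0.27 to -0.18]), with a GC content of 59.25%.

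Markers of other cells differed little between the guide libraries. The T cell list summed to 236.9 CPM with sgRNA-P1, 240.7 CPM with sgRNA-P2 and 232.5 CPM in Mock, with 16 of 23 genes under 1 CPM in both guide libraries. Most of that sum was Cd2, at 180 and 181 CPM, a gene that B cells also express. Only 1 gene of the list, Cd3e, a chain of the T cell receptor complex, had no read with sgRNA-P1. With sgRNA-P2, 3 genes had none, Cd3e among them, so T cell transcripts were low but not absent. The natural killer list summed to 18.5 and 18.2 CPM (7 of 10 under 1 CPM) and the myeloid list to 223 and 225 CPM (14 of 22), mostly Apoe at 195 and 200 CPM. The erythroid list summed to 9.9 and 9.14 CPM (8 of 11) and the platelet list to 7.06 and 7.72 CPM (6 of 8). Pf4, which marks platelets, had no read with either guide.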

How the data were processed

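The authors deposited 1 table of gene read counts for all libraries. HISAT2 and featureCounts, with the builds mm39 and hg38, are named in the submitters' processing notes. Versions, strand setting, pairing and treatment of multiply mapped reads are not given in these sources. Both columns of each group were summed. Of the low sums, 72% to 74.8% were even numbers, as when both reads of a pair are counted, so intervals were computed on sums divided by 2. Library sizes were scaled by TMM over 5 libraries (edgeR 4.0.16), and DESeq2 1.42.0 gave size factors for an alternative. Log2 ratios used 1 added read. Genes at 5 CPM or more in the higher library were kept, and 1.5-fold was the size rule. Intervals are exact conditional binomial intervals for ratios, Poisson intervals for levels and exact binomial intervals for shares of reads. GC content came from the longest GENCODE M21 transcript, and a cubic trend on GC content and length was subtracted in an alternative. Copies were found as 50-base words shared with transcripts of other genes. Scripts used Python 3.11.15 with numpy 2.4.6, pandas 2.3.3 and scipy 1.17.1. The log2 ratio and its interval were tested on simulated data, and the trend step was not.

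Named genes were those of Pou2f1 and its relatives, up to 16 annotated genes past 1.5-fold in each direction, up to 8 at each extreme among genes at 20 CPM and at 100 CPM or more, and, for each list, members with the largest absolute ratios. Remaining annotated genes past the rule, predicted genes, and list members named for their function were chosen after their values were seen. The comparison, its members and the gene lists were chosen with earlier results of these data known. Alternatives were other scalings, filters, added reads, fold rules, the trend, and leaving out 1 column. T cell libraries were used only in the scaling.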

Additional observations from a re-analysis of the deposited data

How the results depend on the processing

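The 42 genes past 1.5-fold (30 higher, 12 lower) became 39 to 41 under the other scalings, 503 (274 higher, 229 lower) with a filter of 1 CPM, 7 (5 and 2) with 20 CPM and 6413 (3047 and 3366) with no filter. A looser fold rule gave 386 (228 and 158) and a 2-fold rule 6 (3 and 3). Without predicted genes 28 remained (22 and 6), and subtraction of the GC and length trend left 24 (14 and 10). Leaving out 1 column gave 40 to 43, with 28 to 31 higher and 12 lower. Since the columns are parts of 1 library, this changes only the depth and says nothing about stability.
The ribosomal protein median was -0.14 with total reads and -0.0599 after the trend, the nuclear respiratory median -0.14 and -0.0704, and the Zfp median 0.0479 after the trend. Spearman's rho with GC content was -0.162 with no filter. Of 2159 values of named genes under other scalings, added reads, the trend or a column left out, 42 left the counting interval. Of 720 list medians, 13 left the interval of the median over members. No named gene past 1.5-fold changed sign, but genes near 0 did after the trend, among them Polrmt (-0.06 to 0.01), Blnk (0.01 to -0.01), Cd2 (-0.01 to 0.04) and Apoe (-0.03 to 0.05). No paired analysis was possible because the columns of a group are 1 library divided. Depth limits genes near 5 CPM, and causes were not tested.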
